A study of Mus musculus with 16 samples.

Results

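The comparison of Msr quadruple knockout (QKO) with wild type (WT) liver took the 8 liver libraries of the 16 libraries in the series, 4 from QKO and 4 from WT mice, chosen by the genotype and tissue given in the labels. All 8 animals were female C57BL/6J mice aged 3 to 6 months that received no treatment. In the QKO animals the genes Msra, Msrb1, Msrb2 and Msrb3 had been knocked out, and the controls are labelled wild type. The other 8 libraries came from the hearts of the same animals. The labels do not give which exons were removed, so the read count of a whole gene can include RNA from a disrupted allele. They also do not say whether the WT animals were littermates of the QKO animals.

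Methionine residues in proteins are oxidised to methionine sulfoxide, which exists in an S and an R form. MsrA reduces the S form, and the MsrB enzymes reduce the R form, using electrons from thioredoxin. The liver has an active sulfur amino acid metabolism and handles many oxidants.

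The liver table gave 2 calls that concern 1 sequence, shown here because it recurs in several annotated genes and bears on how their counts can be read. Mir686 is annotated as a microRNA gene inside Psmb5, which encodes a catalytic subunit of the proteasome, and all 109 bases of its hairpin lie in the coding sequence of Psmb5 on the same strand (RefSeq and GENCODE M21, assembly GRCm38, chr14:54616677-54616785). The mature miR-686 of RefSeq (GRCm38.p6, chr14:54616746-54616767, minus strand) is given with its seed, bases 2 to 8, in capitals. Gm3375, a processed pseudogene on chromosome 7 (chr7:3181093-3181888), is a copy of the Psmb5 transcript that differs from it by 8 substitutions and 1 inserted base over 796 bases. The Psmb5 and Gm3375 stretches below span the hairpin, from the GENCODE M21 transcripts, with differing bases in capitals.
mmu-miR-686: aUUGCUUCccagacggugaaga
Psmb5: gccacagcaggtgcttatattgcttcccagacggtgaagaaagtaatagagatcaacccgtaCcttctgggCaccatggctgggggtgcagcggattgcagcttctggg
Gm3375: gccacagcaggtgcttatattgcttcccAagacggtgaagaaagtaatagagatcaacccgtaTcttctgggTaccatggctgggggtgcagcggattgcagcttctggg
Counted from the first base of the Psmb5 stretch, the substitutions in Gm3375 are C63T and C72T, and the inserted base is an A that falls inside the mature sequence. Reads of Gm3375 and Psmb5 thus differ by few bases, and reads over the Mir686 hairpin are also Psmb5 sequence. The genes Gm22920 and Psmb5-ps hold further copies of the hairpin, 97.2% identical over 109 bases, and had 0 counts in the 8 livers.

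Levels are CPM, a gene's count over the TMM-scaled total of its library in units of 1e6 counts. Total counts ran from 37.9 M to 67.9 M per liver, of which protein-coding genes took 47.2% to 68.1%. The most counted gene in each of the 8 livers was the mitochondrial ribosomal RNA mt-Rnr2, with 14.3% to 27.0% of the count. The hepatocyte markers (13 of 13 tested, among them Alb and Apob) summed to 46960 to 59800 CPM in WT and 54930 to 64770 CPM in QKO livers. Transcripts of pancreatic acinar cells summed to 1123 CPM in WT liver 3 and 336 CPM in WT liver 4, against 4.61 to 9.36 CPM in the other 6 livers. In WT liver 4 those of skeletal muscle summed to 399 CPM, against 11.5 to 48.8 CPM elsewhere. QKO liver 3 stood apart on the second principal component of log2 CPM and WT liver 4 on the first.

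The 4 targeted genes were looked at first, as they check the labels. Msrb2, the mitochondrial enzyme, stood at 6.70, 8.44, 5.78 and 3.47 CPM in WT livers 1 to 4 and at 0.0625, 0.0498, 0 and 0.0479 CPM in QKO livers 1 to 4. The summed counts were 1357 and 10. Msrb3, found in the endoplasmic reticulum, stood at 14.7, 11.3, 11.8 and 10.7 CPM in WT and at 3.14, 2.56, 2.31 and 4.18 CPM in QKO. All QKO values of both genes lay below all WT values, and both fell: the log2 change was -7.04 (SE 0.44, edgeR adjusted p = 2.874e-05) for Msrb2 and -1.99 (SE 0.20, adjusted p = 0.00194) for Msrb3. Msra, the S-form reductase, stood at 80.4, 83.2, 73.9 and 66.7 CPM in WT and at 49.3, 46.3, 47.0 and 42.2 CPM in QKO. The groups did not overlap, but the change of -0.72 (SE 0.12) had an adjusted p of 0.0867 and missed the threshold of 0.05. Msrb1, the selenoprotein of the family, stood at 145, 140, 114 and 140 CPM in WT and at 89.8, 94.4, 142 and 86.4 CPM in QKO, where QKO liver 3 lay among the WT livers (log2 change -0.39, SE 0.18, adjusted p = 1.00). The exact two-sided permutation p over 70 relabellings was 0.0286, the smallest they can give, for Msra, Msrb2 and Msrb3, and 0.114 for Msrb1. RNA of Msra and Msrb1, and of Msrb3 at 25.1% of its WT mean, was thus still counted in QKO livers. Whether this RNA can make protein was not measured.

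Of 17738 genes tested in liver, 15 passed an adjusted p of 0.05 (0.0846%), 10 of them higher in QKO (0.0564%) and 5 lower (0.0282%). An unadjusted p under 0.05 was reached by 583 genes (3.29%) and one under 0.001 by 37 (0.209%). The WT and QKO livers did not overlap for 374 genes (2.11%), of which 171 were higher (0.964%) and 203 lower (1.14%) in QKO. The median log2 change over all genes tested was -0.01, and the middle 50% lay between -0.15 and 0.13. Simulated liver counts held known changes in genes with a level of 1 CPM or more over the 8 livers. Each size had 50 changes. The same test passed 50 of 8-fold (100%), 49 of 4-fold (98%), 23 of 2-fold (46%) and 1 of 1.5-fold (2%). It also gave 8 false calls. Smaller changes could thus often have been missed, and changes in genes under 1 CPM were not simulated. The 15 genes lie on 8 chromosomes: 5 on chromosome 7, 3 on chromosome 4, 2 on chromosome 14 and 1 each on chromosomes 2, 10, 11, 17 and 19.

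**Figure D1:**
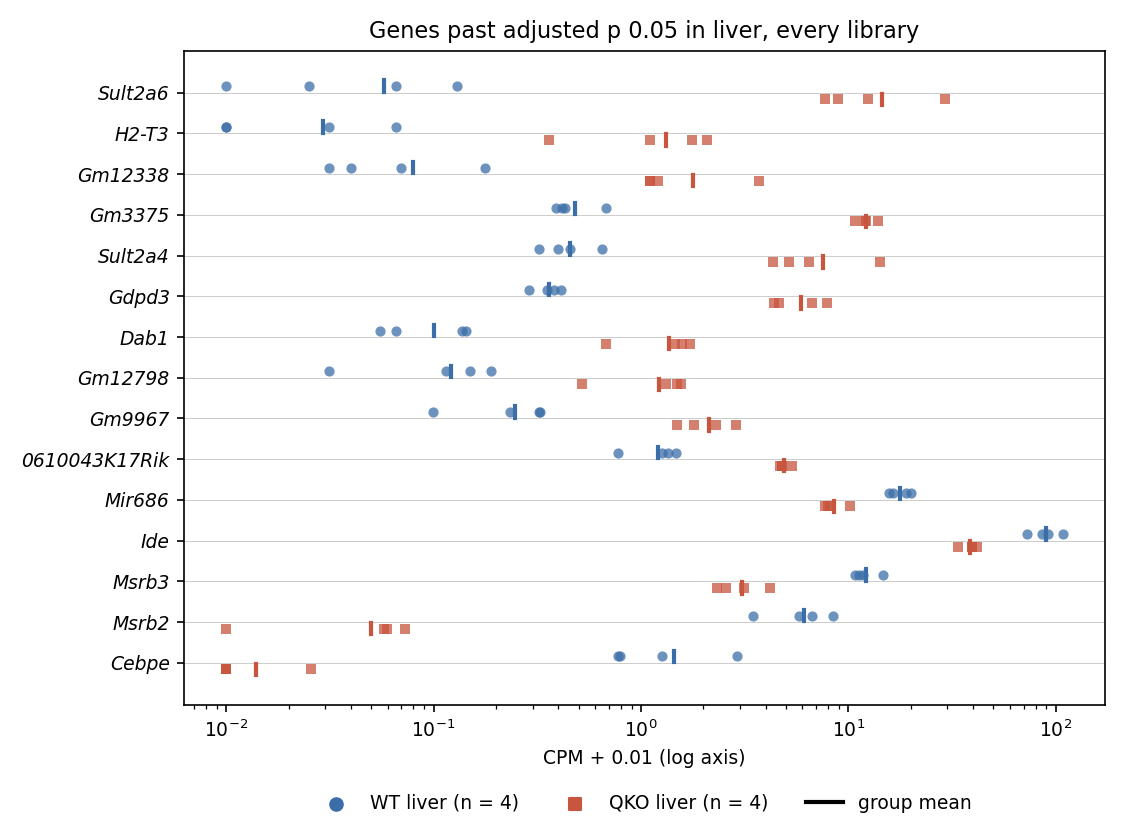
The 15 genes past an adjusted p of 0.05, with the CPM of each WT liver (circles) and QKO liver (squares) on a log axis after adding 0.01, and the mean of each group as a bar. For each gene the 4 values of 1 genotype lay on 1 side of the 4 values of the other.

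**Figure D2:**
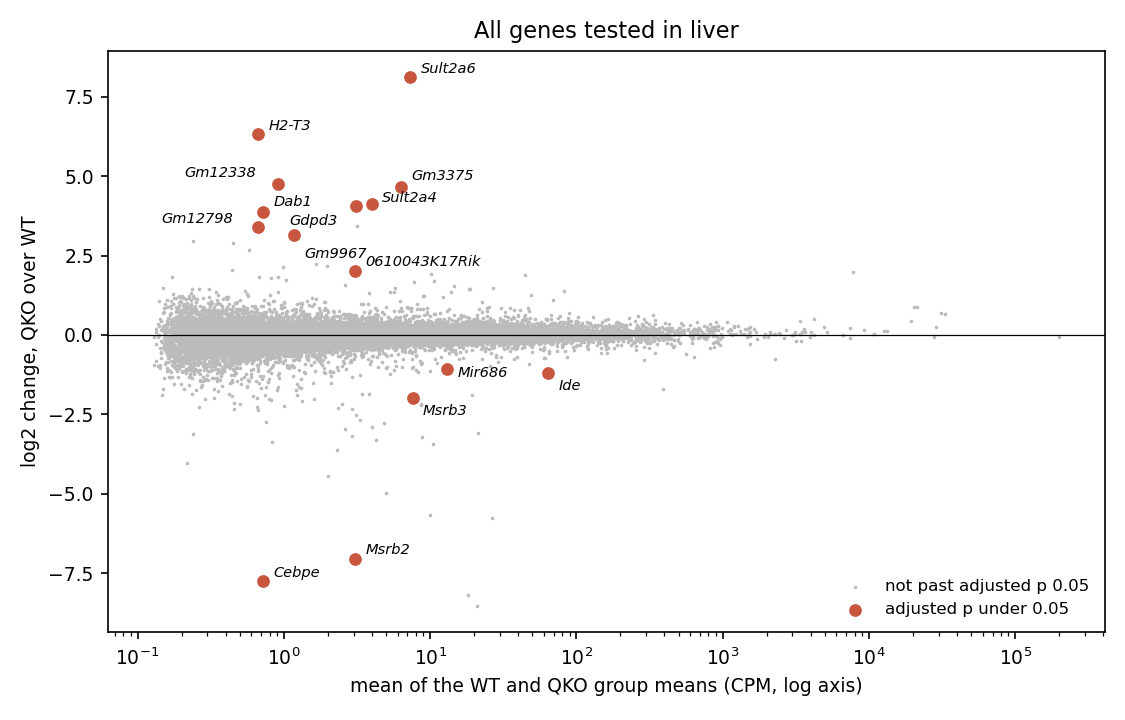
Log2 change of QKO over WT for the 17738 genes tested in liver against the mean of the group means in CPM (log axis). The 15 genes past an adjusted p of 0.05 are named, and most of the other genes lie close to 0.

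Among the calls higher in QKO were 2 hydroxysteroid sulfotransferases, cytosolic enzymes that put sulfate on steroids and bile acids. Sult2a6 stood at 0.0558, 0.119, 0.0150 and 0 CPM in WT livers 1 to 4 and at 8.86, 7.74, 12.4 and 29.1 CPM in QKO livers 1 to 4. Sult2a4 stood at 0.642, 0.313, 0.389 and 0.445 CPM in WT and at 4.31, 5.18, 6.47 and 14.2 CPM in QKO. Both were highest in QKO liver 4, and no WT value reached a QKO value. The log2 change of Sult2a6 was 8.11 with an SE of 0.67 (adjusted p = 2.972e-04), from 11 counts over the 4 WT livers to 3320 in QKO. Sult2a4 rose by 4.11 (SE 0.41, adjusted p = 0.00190).

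The 8 Sult2a genes tested are close relatives. The transcripts of Sult2a4 and Sult2a6 are 94.1% and 89.5% identical to that of Sult2a1, which had a mean of 180 CPM in WT and 219 CPM in QKO, so some reads could have been placed on the wrong member. The other 6 members, Sult2a1, Sult2a2, Sult2a3, Sult2a5, Sult2a7 and Sult2a8, had log2 changes of -0.90 to 0.80 and none passed. Partial copies of Sult2a4 were also tested. Sult2a-ps2, 95.1% identical over 346 bases, had a change of 2.16 (SE 0.83), and Sult2a-ps1 had -0.22 (SE 0.55). Neither passed. Sult2a1 itself stood at 370, 167, 75.9 and 108 CPM in WT and at 81.3, 163, 173 and 458 CPM in QKO. The median of the 8 genes, 0.31, was 0.07 to 1.02 when 1 library was left out and -0.11 without WT livers 3 and 4. The promoters of Sult2a4 (GRCm38.p6, chr7:13989539-13989838, minus strand) and Sult2a6 (chr7:14254821-14255120, minus strand), from RefSeq, are shown because both genes of this cluster were called. Sult2a3 lies between them (log2 change -0.01, adjusted p = 1.00). Each is 300 bases, from 250 before to 50 after the start site. Capitals mark matches, on either strand, to 5 motifs: TATAAA (13.6% of 32851 promoters), the C/EBP site TTGCNNAA (10.8%), the HNF1 motif GTTAAT (7.1%), the antioxidant response core TGACNNNGC (12.4%) and the nuclear receptor motif AGGTCA (16.3%).
Sult2a4: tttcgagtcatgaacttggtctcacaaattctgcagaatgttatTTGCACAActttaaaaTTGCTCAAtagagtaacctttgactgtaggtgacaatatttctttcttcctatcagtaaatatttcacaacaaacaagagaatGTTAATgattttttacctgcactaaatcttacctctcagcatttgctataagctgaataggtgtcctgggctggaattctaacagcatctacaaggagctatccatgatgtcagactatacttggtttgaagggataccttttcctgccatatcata
Sult2a6: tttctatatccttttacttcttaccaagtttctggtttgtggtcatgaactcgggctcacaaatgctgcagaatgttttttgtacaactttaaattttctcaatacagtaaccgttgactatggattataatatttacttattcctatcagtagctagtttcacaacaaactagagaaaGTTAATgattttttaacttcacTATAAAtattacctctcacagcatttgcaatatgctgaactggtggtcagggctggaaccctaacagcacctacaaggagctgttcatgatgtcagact
The 2 promoters were identical at 85.8% of 260 aligned bases, with 80 gap positions. The promoter of Sult2a4 was closer to those of Sult2a3 (93.0% of 242 aligned bases) and Sult2a5 (92.2% of 219), which were not called. Sult2a4 held 2 C/EBP matches, at 206 and 190 bases before the start, and a GTTAAT at 107 before it. Sult2a6 held TATAAA at 49 and GTTAAT at 71 bases before the start. These matches describe letters in the window and not binding.

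Gdpd3 encodes a lysophospholipase D that acts on lysophospholipids. It stood at 0.279, 0.372, 0.344 and 0.402 CPM in WT and at 4.38, 4.60, 6.65 and 7.85 CPM in QKO. It rose by 4.05 (SE 0.26, adjusted p = 2.874e-05). Gm9967, an annotated transcript on the opposite strand, overlaps it: 298 of its 2193 exon bases are shared with the 2186 of Gdpd3. Gm9967 stood at 0.223, 0.313, 0.0898 and 0.318 CPM in WT and at 1.80, 1.48, 2.28 and 2.87 CPM in QKO, a rise of 3.16 (SE 0.39, adjusted p = 0.00642). The libraries are stranded per the labels, but the strand setting used in counting was not given, so their reads may not be separate. Of 24 glycerophosphodiesterases and lysophospholipid enzymes tested, Gdpd3 was the 1 that passed, 17 lay higher and 7 lower, and the median was 0.04.

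Ide, the insulin-degrading protease, stood at 86.2, 91.5, 108 and 72.6 CPM in WT and at 41.6, 39.5, 33.9 and 39.6 CPM in QKO. The fall was to 43.1% of the WT mean, a log2 change of -1.21 (SE 0.15, adjusted p = 0.00615). Among the nearest tested protein-coding genes on chromosome 19, 1 had an unadjusted p under 0.05: Btaf1, a regulator of the TATA-binding protein, stood at 44.8 ± 3.11 and 33.8 ± 3.72 CPM (log2 change -0.41, unadjusted p = 0.0074), without overlap. Among the insulin and IGF signalling genes, 21 of 30 lay higher, with a median of 0.11. Igfbp3 and Socs2 had changes of 0.75 and 1.48 with unadjusted p of 0.00349 and 0.00475, and Ide was the only member called.

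Dab1 encodes an adaptor that carries the signal of the reelin receptors. It stood at 0.0558, 0.134, 0.0449 and 0.127 CPM in WT and at 1.72, 1.56, 0.671 and 1.45 CPM in QKO, and rose by 3.86 (SE 0.45, adjusted p = 0.00468). Without WT livers 3 and 4 its adjusted p was 0.0591. Reln, the ligand, is made by stellate cells in liver and stood at 116 ± 11.2 and 141 ± 17.9 CPM (log2 change 0.27, unadjusted p = 0.0747). C8a, a neighbour of Dab1 on chromosome 4, encodes a complement component and had a change of -0.56 (unadjusted p = 0.0111).

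Cebpe is a transcription factor of late granulocyte maturation. It stood at 1.26, 2.90, 0.763 and 0.784 CPM in WT and at 0.0156, 0, 0 and 0 CPM in QKO, that is 328 counts against 1. WT livers thus held 339 times the QKO level (95% exact interval for counting error alone, 60.3 to 13400), and the adjusted p was 0.00238. In bulk tissue, fewer cells of a type and less RNA per cell cannot be told apart. Of 16 granulocyte markers, Cebpe among them, 5 passed the filter on low counts, and the summed level of all 16 was 18.2, 5.69, 3.52 and 5.27 CPM in WT and 2.19, 10.2, 4.00 and 4.13 CPM in QKO, which overlapped. All 5 tested markers, with Cebpe itself counted, lay lower in QKO, with a median of -1.05, and -0.12 without WT liver 1. Ctsg, a neutrophil protease, had 0 counts in both groups, and Mpo, a granule peroxidase, had 5 and 2. Cebpe lies on chromosome 14, at -9.74 Mb from the start site of Msra. Of its 6 nearest tested protein-coding genes, 2 lay lower in QKO without overlap, beside 2.11% of all genes without overlap. These were Ppp1r3e (log2 change -1.89, unadjusted p = 7.58e-05) and Acin1 (-0.29, unadjusted p = 0.0298). The parts of granulocyte number and of position in the fall of Cebpe were not tested. S100a8 and S100a9, neutrophil alarmins, were highest in WT liver 1. The other members of the C/EBP family, from Cebpa at 216 ± 86.0 and 290 ± 75.2 CPM to Cebpz, did not pass.

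H2-T3 is a nonclassical class I histocompatibility gene on chromosome 17. It starts within 20 Mb of the targeted Msrb1 and was the 1 gene called among the 506 tested there. It stood at 0.0558, 0, 0 and 0.0212 CPM in WT and at 2.06, 1.74, 0.349 and 1.10 CPM in QKO. The 3 WT counts against 319 gave a ratio of 103 (95% exact interval for counting error, 34.9 to 502), and the adjusted p was 0.0113. The call ended without WT liver 2 (adjusted p = 0.0622) or WT liver 3 (0.0694). The transcript resembles those of other class I genes by 80% to 84%, and H2-K1, a classical class I gene, stood at 911 ± 89.6 and 1067 ± 185 CPM (log2 change 0.23). Of 23 class I genes, 16 lay higher, with a median of 0.11.

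The other calls were genes without a known function and copies of other genes. The long noncoding RNA 0610043K17Rik stood at 1.34, 1.46, 0.763 and 1.25 CPM in WT and at 4.77, 5.35, 4.75 and 4.68 CPM in QKO (rise of 2.03, SE 0.22, adjusted p = 0.00248). The noncoding Gm12798, which starts close by on chromosome 4, stood at 0.140, 0.104, 0.180 and 0.0212 CPM in WT and at 1.31, 1.54, 1.48 and 0.511 CPM in QKO. Its rise of 3.39 (SE 0.52, adjusted p = 0.0404) lost its call without WT liver 1, 2 or 3 or QKO liver 1, 2 or 3, at adjusted p values of 0.0883 to 0.182. It was also lost with the range of the animal number as a term (0.0518) and with limma-voom (0.218). The 3 calls on chromosome 4, with Dab1, start at bases 101353783 (0610043K17Rik), 101403081 (Gm12798) and 103619359 (Dab1).

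Gm3375, the copy of Psmb5 shown above, had the smallest p of all genes. It stood at 0.418, 0.670, 0.404 and 0.381 CPM in WT and at 11.96, 12.1, 13.9 and 10.8 CPM in QKO (log2 change 4.67, SE 0.22, adjusted p = 2.145e-06). Psmb5 stood at 49.8, 50.1, 42.9 and 45.8 CPM in WT and at 26.4, 26.6, 33.2 and 25.3 CPM in QKO (log2 change -0.76, SE 0.13, adjusted p = 0.0861). Of the counts of both together, Gm3375 took 0.834% to 1.32% in WT and 29.5% to 31.3% in QKO livers. Their summed level was 47.6 ± 3.51 CPM in WT and 40.0 ± 4.81 CPM in QKO. Mir686 stood at 19.0, 20.1, 15.7 and 16.3 CPM in WT and at 8.10, 7.71, 10.1 and 7.995 CPM in QKO, and fell by 1.07 (SE 0.14, adjusted p = 0.0128). Since its hairpin is coding sequence of Psmb5 and standard libraries of this kind do not enrich small RNA, these counts cannot be told apart from reads of Psmb5. Its call ended without WT liver 1 or 2 or QKO liver 1, 2 or 4 (adjusted p = 0.0725 to 0.108), with the replicate number as a block (0.0758) and within the animal numbers 4811 to 4826 (0.555). Of 41 proteasome subunits tested, the groups did not overlap for Psmb5 alone (2.44%, near the 2.11% of all genes), and the list's median was 0.01.

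Gm12338, a processed pseudogene of 192 bases, is identical to the transcript of Cox7c, a subunit of cytochrome c oxidase, at 100% of its bases, and lies inside Pitpna on the opposite strand. It stood at 0.167, 0.0595, 0.0299 and 0.0212 CPM in WT and at 1.20, 1.10, 3.67 and 1.10 CPM in QKO (log2 change 4.76, SE 0.64, adjusted p = 0.0128). Of the counts of Gm12338 and Cox7c together it took 0.0277% to 0.193% in WT and 1.60% to 4.61% in QKO livers. Cox7c stood at 71.9 ± 11.9 and 66.8 ± 7.70 CPM. Without WT liver 2 or 3 the adjusted p of Gm12338 was 0.0832 or 0.0883.

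The position of these genes relative to the targeted genes was also counted. Within 20 Mb of the start of Msra on chromosome 14, leaving Msra out, 43 of 324 tested genes (13.3%) had an unadjusted p under 0.05, against 6 of 242 (2.48%) on the rest of the chromosome and 506 of 16344 (3.1%) further than 20 Mb from each of the 4 genes. The groups did not overlap for 36 of the 324 (11.1%), against 1.94% of the 16344. An unadjusted p under 0.001 was reached by 12 of the 324 (3.7%). The 2 called genes among the 324 were Mir686 and Cebpe, at -9.84 and -9.74 Mb, beside 10 called among the 16344. The counts of Mir686 cannot be told apart from reads of Psmb5. Both are among the 12, and Psmb5 did not pass (edgeR adjusted p = 0.0861). Near Msrb1, Msrb2 and Msrb3 the share with an unadjusted p under 0.05 was 3.36%, 2.11% and 2.78%. H2-T3 was the 1 gene called among the 506 tested near Msrb1. With the targeted genes left out, none was called near Msrb2 or Msrb3. The part of position in the calls near Msra and Msrb1 was not tested. Leaving out 1 library at a time gave 11.6% to 14.3% near Msra and 2.46% to 5.31% among all other tested genes. The animal numbers in the labels fall in 2 ranges, with 2 WT and 2 QKO mice in each. Within the range 4732 to 4757 the shares were 15.3% near Msra and 6.41% elsewhere, and within 4811 to 4826 they were 8.81% and 5.44%.

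The 13 genes of chromosome 14 with an unadjusted p under 0.001 lay between -10.04 Mb (Slc7a7) and 13.45 Mb (Epsti1) from the start site of Msra, counted along the chromosome. They went in both directions, and Psmb5 and Mir686, which share sequence, are both among them. Slc25a30, a mitochondrial carrier, stood at 6.14, 7.12, 7.83 and 8.73 CPM in WT and at 12.4, 19.98, 20.3 and 34.9 CPM in QKO (log2 change 1.55, SE 0.27, adjusted p = 0.0861). Tnfrsf10b, a death receptor for TRAIL, stood at 0.251, 0.134, 0.120 and 0.191 CPM in WT and at 0.672, 0.830, 0.563 and 0.750 CPM in QKO (2.06, SE 0.36, adjusted p = 0.0922). Fndc3a, a fibronectin domain protein, stood at 66.2, 57.9, 77.4 and 49.2 CPM in WT and at 29.1, 35.9, 30.9 and 35.8 CPM in QKO (-0.93, SE 0.16, adjusted p = 0.0861). In each the groups did not overlap, and none of the 3 passed. Ppp1r3e, which targets a phosphatase to glycogen, Slc7a7, a cationic amino acid transporter, and Epsti1, induced by interferon, had changes of -1.89, 0.84 and -1.02 and adjusted p of 0.0840, 0.174 and 0.244.

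**Figure D3:**
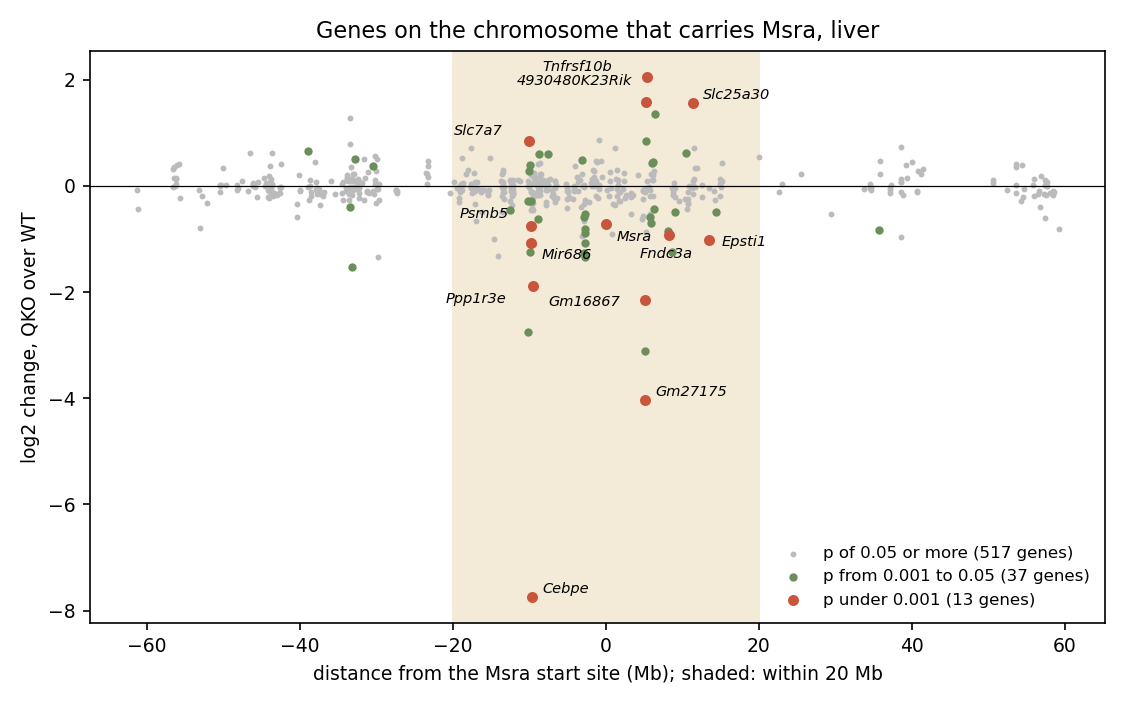
Log2 change of QKO over WT for the 567 genes tested on chromosome 14 against the distance of their start from that of Msra in Mb, with the part within 20 Mb shaded and genes coloured by unadjusted p. The 13 genes with p under 0.001 all lie in the shaded part, and Msra is 1 of them.

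Outside chromosome 14, the genes nearest to the threshold with a symbol other than a Gm number or a Rik clone name were Hyi, Klf9, Il1b and Hbb-bt. Gm15975 (log2 change 2.95, adjusted p = 0.112), 4930524O07Rik (-0.69, adjusted p = 0.142) and Gm14292 (2.89, adjusted p = 0.198) lay among them. Hyi, a hydroxypyruvate isomerase, stood at 23.6, 32.4, 19.8 and 38.9 CPM in WT and at 65.2, 59.3, 90.8 and 59.6 CPM in QKO (1.26, SE 0.22, adjusted p = 0.0952). Klf9, a transcription factor induced by glucocorticoid and thyroid hormone, stood at 34.8, 35.7, 36.5 and 33.7 CPM in WT and at 56.7, 56.2, 50.1 and 53.8 CPM in QKO (0.62, SE 0.11, adjusted p = 0.105). Il1b, a cytokine of activated macrophages, stood at 3.01 ± 0.765 and 8.43 ± 3.05 CPM (1.48, adjusted p = 0.142). These 4 genes did not overlap between the groups and did not pass. In Hbb-bt, the adult beta globin, the value was 28.7 ± 6.05 against 16.9 ± 0.892 CPM.

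Heart libraries of the same animals were tested apart, and 28 of 16974 genes passed there (0.165%). As liver and heart came from the same 8 animals, values are given side by side. The test of a difference between the tissues had no term for the animal. Gm3375 had 4.58 in heart and 4.67 in liver, Gdpd3 4.02 and 4.05, Gm9967 3.55 and 3.16, Ide -1.04 and -1.21, Gm12338 3.72 and 4.76, and all 5 passed in heart. Of the targeted genes, Msrb2, Msrb3 and Msra had -6.40, -2.62 and -0.52 in heart, and all 3 passed there (adjusted p = 0.0263 for Msra). Msrb1 went the other way in heart: it rose in QKO, from 11.53, 11.76, 10.99 and 10.16 CPM in WT hearts to 13.55, 15.12, 15.65 and 17.22 CPM in QKO hearts, without overlap (log2 change 0.48, SE 0.08, adjusted p = 0.0337). The difference of liver minus heart for Msrb1 was -0.86 (SE 0.21) and did not pass over all genes (interaction adjusted p = 0.851). The label of a Msrb1 knockout thus cannot be checked by a fall of its whole-gene count in heart. Mir686 had -0.60 in heart (adjusted p = 0.314). Sult2a6, Sult2a4, Dab1 and Gm12798 had at most 7 counts summed over the 4 hearts of either genotype, and Cebpe and H2-T3 had 0, so their effect in heart could not be measured. 0610043K17Rik had 0.18 in heart against 2.03 in liver, a difference of 1.86 (SE 0.38, interaction adjusted p = 0.344). Of 19587 genes tested for a difference between the tissues, 1 passed (0.00511%). It was Ripk4, a kinase of epidermal differentiation named after its values were seen, and it was not a liver call (liver change 0.11, heart change 2.65). Within 20 Mb of Msra, 66 of 305 heart genes (21.6%) had an unadjusted p under 0.05, against 6.92% of the rest. Of the 12 genes of that window called in heart, Fndc3a and Sucla2, a subunit of a citric acid cycle enzyme, had liver changes of -0.93 and -0.50, and neither passed in liver.

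Gene lists were described by counts and medians. Of 30 unfolded protein response genes tested, 22 lay lower and 8 higher, the median was -0.21, and none passed. The groups did not overlap for 8, all lower in QKO (26.7% of the list, beside 1.14% of all genes lower in this sense). Manf, secreted on stress of the endoplasmic reticulum, stood at 67.7, 64.2, 90.4 and 75.9 CPM in WT and at 47.4, 53.0, 40.1 and 41.8 CPM in QKO. The chaperone Hspa5 stood at 575, 589, 820 and 727 CPM in WT and at 429, 525, 397 and 448 CPM in QKO. Its cofactor Dnajb9 stood at 53.0, 44.1, 48.5 and 49.2 against 24.2, 43.0, 25.5 and 28.3 CPM. None of the 3 passed (adjusted p = 0.275, 0.905 and 0.797). The stress genes Ppp1r15a and Atf4, targets of the translational arm, had log2 changes of 0.56 and 0.20. Over the list the changes ran from -0.87 to 0.99. An unadjusted p under 0.05 was reached by 8 members that lay lower and 1 that lay higher.

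The summed level of the unfolded protein response list was 4564, 4680, 5355 and 4592 CPM in WT livers 1 to 4 and 4119, 4331, 3910 and 4031 CPM in QKO livers 1 to 4, without overlap. Acinar transcripts summed to 7.92 and 5.51 CPM in WT livers 1 and 2, and to 1123 and 336 CPM in WT livers 3 and 4. For the unfolded protein response genes, the median log2 change with all livers was -0.21. It was -0.11 without WT livers 3 and 4 and -0.14 without WT liver 3 alone. The part of the acinar transcripts in the difference was not tested. Of 32 heat shock and cytosolic chaperone genes, 31 lay lower with a median of -0.09, and without WT livers 3 and 4 it was -0.02.

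All 18 liver sinusoidal endothelial markers lay higher in QKO, with a median of 0.32, and none passed. Bmp2, a ligand that sinusoidal endothelium makes, stood at 13.4, 14.1, 14.3 and 10.6 CPM in WT and at 16.7, 17.9, 18.8 and 24.6 CPM in QKO (0.57, unadjusted p = 0.0036). Oit3 stood at 26.2, 27.0, 27.4 and 22.8 against 32.5, 29.1, 30.7 and 40.4 CPM. The summed level overlapped, at 417 to 563 against 503 to 766 CPM, and QKO liver 4 was highest. Without that library the median was 0.12.

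Immediate early genes lay higher in 21 of 23, with a median of 0.43. Nr4a1, an orphan nuclear receptor, stood at 0.279, 0.298, 0.389 and 0.487 CPM in WT and at 0.719, 3.82, 1.18 and 0.734 CPM in QKO, and none passed. All 8 red cell markers lay lower, with a median of -0.70, and the summed level ran from 144 to 374 CPM in WT and from 153 to 197 CPM in QKO, so the groups overlapped. The 12 B and plasma cell markers all lay lower, with a median of -0.94 that became 0.03 without WT liver 3, the library with 176 CPM of these transcripts against 12.2 to 22.8 CPM elsewhere.

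**Figure D4:**
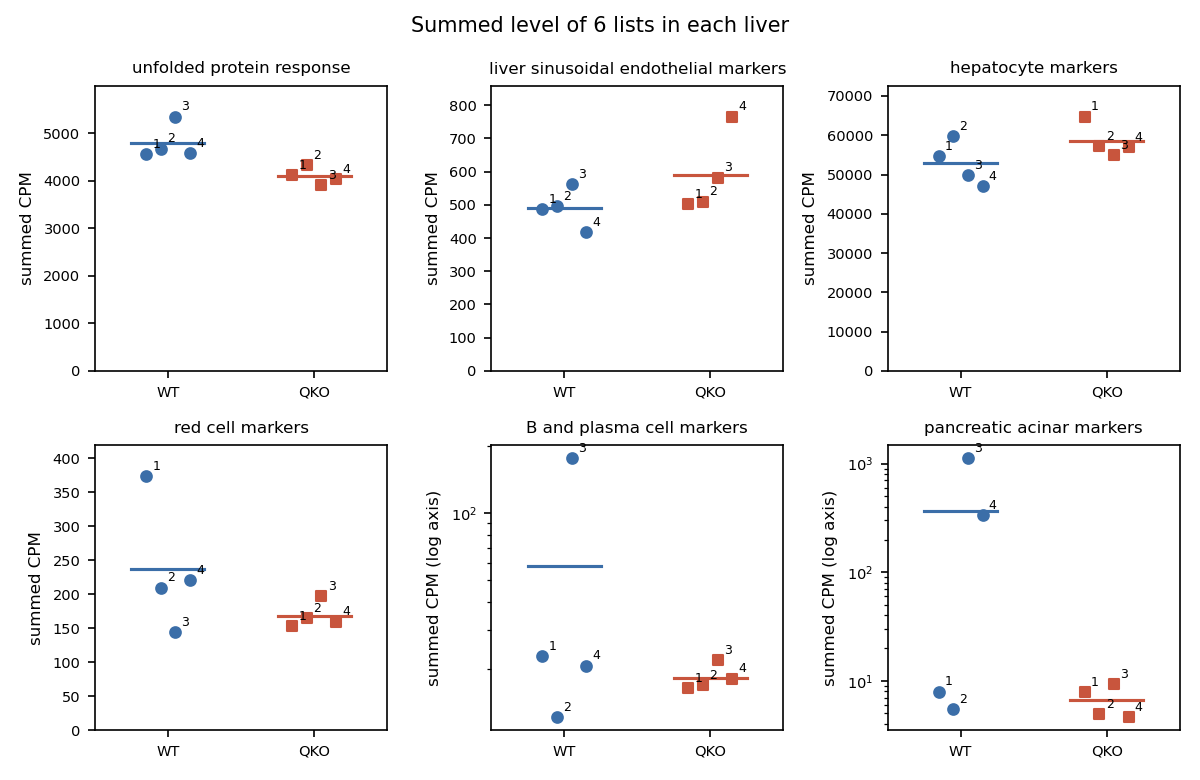
Summed CPM of 6 lists in each liver, with the number of the replicate beside each point and the group mean as a bar. The lower right and lower middle plots have a log axis, and WT livers 3 and 4 stand out in the pancreatic acinar list while WT liver 3 does so in the B and plasma cell list.

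Lists on the chemistry of the missing enzymes stood near 0. Antioxidant enzymes and NRF2 targets lay higher in 26 of 44 genes with a median of 0.03, and none had an unadjusted p under 0.05. Selenoproteins and their synthesis machinery had a median of 0.04 over 27 genes, the methionine cycle and transsulfuration 0.07 over 35, and glutathione transferases and synthesis 0.04 over 25. Cdo1, which oxidises cysteine, stood at 716 ± 109 and 911 ± 135 CPM (unadjusted p = 0.0646). The 3 Mical enzymes, which oxidise methionine in actin, had changes of -0.23 (Mical1), 0.04 (Mical3) and -0.02 (Mical2). Other lists whose medians moved with WT livers 3 and 4 included urea cycle and amino acid breakdown, higher in 34 of 39 with a median of 0.12 and -0.07 without these 2 livers. Gldc, a subunit of the glycine cleavage system, was its 1 member whose groups did not overlap (2.56%, near the 2.11% of all genes), at 33.3 ± 5.29 and 45.6 ± 4.19 CPM.

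Drug-metabolising cytochrome P450 genes lay higher in 27 of 37 with a median of 0.11, and -0.07 without WT livers 3 and 4. The groups did not overlap for Cyp2c38 (log2 change -0.58) and Cyp2c67 (-0.42), both lower in QKO (5.41% of the list, beside 2.11% of all genes), and neither passed. Several Sult2a genes are more abundant in female than in male mouse liver, so lists of sex-biased liver genes were described beside them. Of 32 female-biased genes 17 lay higher and 15 lower (median 0.10), and of 36 male-biased genes 19 lay higher and 17 lower (median 0.07). Without WT livers 3 and 4 these medians were -0.09 and -0.21.

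**Figure D5:**
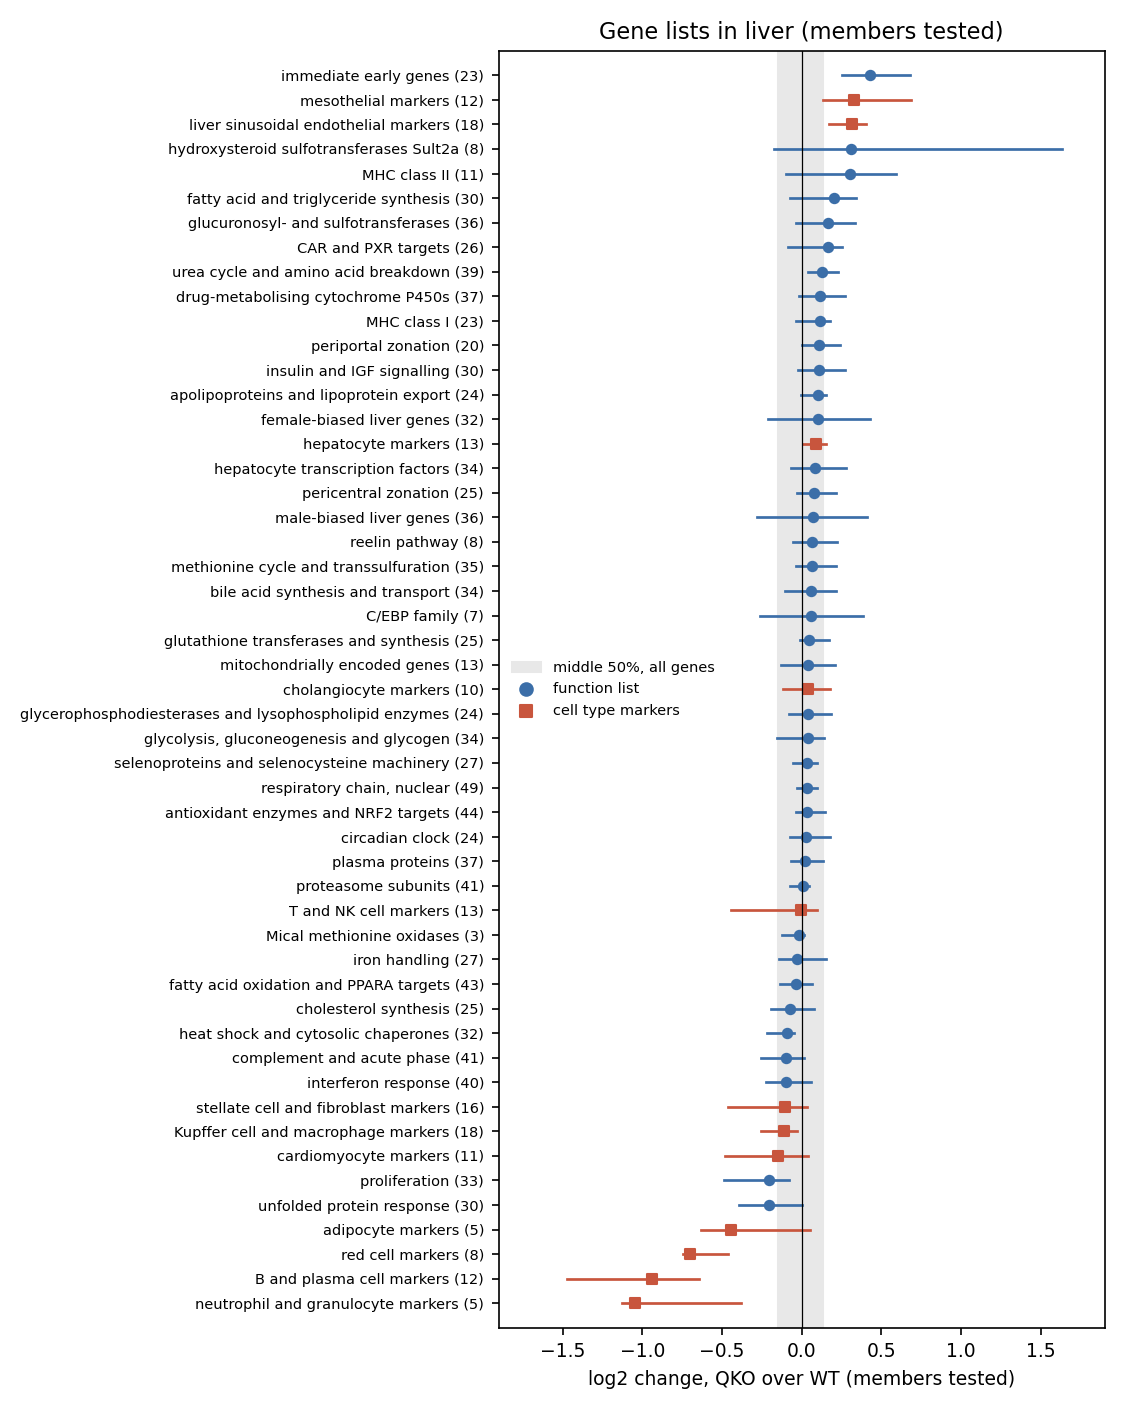
Median log2 change of QKO over WT, with the middle 50% of the members, for lists with 3 or more tested genes, and the grey band for the middle 50% of all genes tested. The pancreatic acinar and skeletal muscle lists, at medians of -5.76 and -3.19, and the 4 Msr genes are not drawn.

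Among the most counted protein-coding genes, albumin (Alb) stood at 26440 ± 4441 CPM in WT and 31390 ± 3486 CPM in QKO, and transferrin (Trf) at 12640 ± 1201 and 13920 ± 1680 CPM. The gene model Gm20425 overlaps Trf and had the same log2 change of 0.14. Apoe, Apob, Ahsg, Serpina3k, Gc, Apoa2 and the mitochondrial mt-Co1 had log2 changes of -0.10 to 0.25. None of these 10 genes passed.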

How the data were processed

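The authors deposited raw read counts per gene, whole numbers for 48709 Ensembl identifiers in 16 libraries. Per the labels, RNA was depleted of ribosomal RNA and sequenced from stranded libraries in pairs, and the submitters' processing notes name mm10, cutadapt, HISAT2 and featureCounts without versions or a strand setting. Symbols and positions came from GENCODE M21 (48349 identifiers matched).

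The 8 liver libraries were scaled by TMM, filtered by filterByExpr and tested in edgeR 4.0.16 (R 4.3.3) by quasi-likelihood, with p-values adjusted by Benjamini-Hochberg at 0.05. CPM use the scaled library sizes, and SE is the size of the log2 change over the square root of F. The fit was checked on simulated data. Members and lists were chosen with earlier results of these data known. Named are the Msr genes, called genes, the 12 nearest the threshold whose symbol is no Gm number or Rik clone name, the 10 most counted, neighbours, relatives, and leading list members; any other gene was chosen after its values were seen. Transcripts were compared with blastn 2.17.0. limma 3.58.1 and DESeq2 1.42.0 were alternatives.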

Additional observations from a re-analysis of the deposited data

Results flagged for a closer look

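In groups of 4 livers, 1 value stood far from the other 3 by Dixon's criterion in 7 of 56 groups checked, where chance flags about 1 in 20. These were Gm3375 in WT liver 2 (0.67 CPM), Cebpe in QKO liver 1 (0.0156 CPM, a single count), 0610043K17Rik in QKO liver 2 (5.35 CPM), Gm12338 in QKO liver 3 (3.67 CPM), Mir686 in QKO liver 3 (10.1 CPM), Msrb1 in QKO liver 3 (142 CPM) and Psmb5 in QKO liver 3 (33.2 CPM). Of the 7, 4 were in QKO liver 3, the library with the smallest scaling factor (0.773). A fit without a term for the animal called a difference between tissues for Ripk4. Its genotype effect in liver minus heart was -2.52 (SE 0.29, interaction adjusted p = 0.00216). No gene passed with limma-voom and the animal as a block.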

How the results depend on the processing

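The count of 15 called liver genes was 9 with protein-coding genes only, 33 within the animals numbered 4811 to 4826 (2 against 2, 6 of the 15 kept), 44 in 1 fit of all 16 libraries and 56 with DESeq2 (all 15 kept in the last 2). It was 12 to 19 when 1 library was left out, and 16 without WT livers 3 and 4 (7 higher, 9 lower, 11 of the 15 kept). With the replicate block 16 genes were called, 14 of them shared, and Mir686 was lost (adjusted p = 0.0758). The same replicate numbers correlated at 0.046, -0.0507, -0.0687 and 0.121, and not every liver correlated best with its own number. Gm3375, Msrb2, Gdpd3, Sult2a6 and Sult2a4 kept their calls in each setting that tested them, and none of the 15 called genes reversed. List medians did turn: without WT livers 3 and 4 those of the P450, urea cycle, Sult2a, female-biased and male-biased lists fell below 0, and that of B and plasma cells was 0.03 without WT liver 3. Msrb3 was -1.78 (adjusted p = 0.149) within the higher animal numbers. The 9 calls lost there (Msrb3, Cebpe, 0610043K17Rik, Dab1, Ide, Gm9967, H2-T3, Mir686 and Gm12798) had adjusted p of 0.0727 to 0.586. Within 4732 to 4757, Ide (0.0542), Gm9967 (0.0938) and Gm12338 (0.103) were lost. Without WT livers 3 and 4, Dab1, Gm12798, H2-T3 and Gm12338 were lost (0.0591 to 0.201). Msra was -0.71 in the fit of all libraries (adjusted p = 0.0016) and -0.71 with DESeq2 (adjusted p = 3.724e-04). The 1 gene that differed between tissues became 0 to 2 when 1 replicate was left out and 0 with limma-voom and the animal as a block. The share of genes near Msra under these settings, a comparison chosen after seeing the data, was 8.81% within the higher animal numbers. It was 9.17% (DESeq2) to 18.1% (all 16 libraries in 1 fit) in the other settings run. Among all other tested genes, the shares in these 3 settings were 5.44%, 2.67% and 6.34%.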
